A study of Mus musculus with 111 samples.

Results

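Some piRNA precursors of the mouse are listed under the chromosome band they lie in, followed by a number, as in 9-qC-31469 on chromosome 9, band qC. They were taken by name from a table of small RNA read counts, as every entry that starts with a chromosome number and -q. Of 1268 entries in the table, 204 were of this kind. They belonged to 97 loci, which lie in 52 bands on 18 chromosomes. Isoforms of one locus that listed the same reads were collapsed, which left 146 of the 1042 features of the collapsed table, and each locus is described below by its most read isoform. The 111 libraries were of 6 tissues, with 19 each of sperm, testis, caput epididymis and heart, 18 of cauda epididymis and 17 of liver. The mice had been fed 1 of 4 diets for 6 months. Control feed held 18% protein, and low-protein feed held 10% protein with sucrose added. Fat supplied 7.2% of the calories in the high-fat control feed and 60% of those in the high-fat feed. Each tissue had 4 or 5 libraries per diet, which makes 24 groups. Strain and age at sampling are not given. Whether the libraries within a group stem from different animals is not stated either, so the p-values rest on a spread among libraries that may be partly technical.

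PIWI-interacting RNAs, or piRNAs, are small RNAs of animal germ cells that guide PIWI proteins to transposon and messenger RNA. They are cut from long single-stranded transcripts, the precursors, of which many come from gene-poor stretches of the genome and others from messenger RNA genes. In mice the most productive precursors switch on when male germ cells enter the pachytene stage of meiosis, under the transcription factor A-MYB. The testis therefore makes them, mature sperm have stopped transcription, and the epididymis stores sperm among somatic cells. The band-named entries have no host gene in their name, whereas another 76 loci of the same table carry the prefix pi- and a gene symbol, and are called host-named here.

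One property of the counts bears on every value. The deposited counts were even numbers in every library for 90 of the 97 loci, whereas 7 of the 76 host-named loci had an entry of which this held. Of 4342 band-named counts above 0, 93.1% were even, compared with 42.3% of host-named counts and 45.7% of all other counts. How reads were assigned is not stated in the sources at hand. Levels below are the counts as deposited, and counting intervals, lower bounds and values said to be halved use halved counts for the 90 loci. The 7 loci with odd counts were 1-qE2.3-2, 2-qE5-4, 6-qF3-1063, 6-qF3-3040, 7-qD2-40, 13-qA5-156 and 15-qE1-3710. The table gives no read lengths. Every library's column name ends in gt65, which may mark a lower limit on read length, but the sources at hand do not explain it. Whether the reads are piRNAs or longer pieces of the precursor is therefore not known. Depth over all features ranged from 827 to 1467885 reads per library, 3 libraries (none of testis) had under 5000 reads, and none of 11 microRNA genes listed as tissue markers was among the entries analysed here, so the tissue labels could not be checked that way.

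The 97 loci were a testis set. Of their 55356 reads, 53787 (97.2%) lay in testis, 797 in sperm, 532 in cauda, 139 in heart, 61 in liver and 40 in caput. Every locus had reads in testis, 40 of them in all 19 testis libraries, and the least widely seen was present in 8. Reads were found for 80 loci in sperm, 64 in cauda, 10 in liver, 6 in caput and 4 in heart, and 9 loci had none outside testis. Their summed share of a library was 3.27% ± 2.76 in testis (SD, n = 19), 0.120% ± 0.0976 in sperm (n = 19) and 0.0373% ± 0.0226 in cauda (n = 18). With halved counts it was 1.76% in testis, 0.0738% in sperm and 0.0275% in cauda. As deposited, it was 0.00734% ± 0.00992 in caput (n = 19), 0.00191% ± 0.00232 in liver (n = 17) and 0.00223% ± 0.00208 in heart (n = 19). One sperm library, high-fat control replicate 1 at 0.492%, lay above the lowest 2 testis libraries (0.272% and 0.445%), and every other library outside testis lay below all those of testis.

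**Figure D1:**
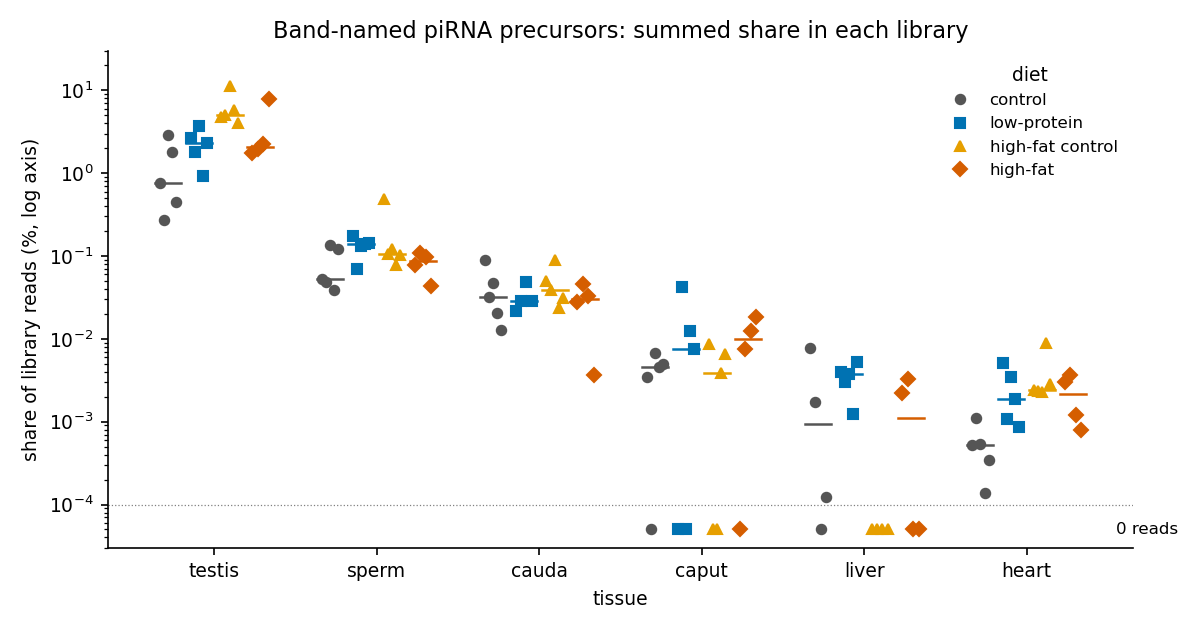
Summed share of the 97 loci in each library (vertical axis, percent of reads, log axis) by tissue, with 1 symbol per library, coloured and shaped by diet, and a short line at each group's median. Testis libraries sit between 0.272% and 11.3%, those of sperm between 0.0392% and 0.492%, and libraries with no read are drawn under the dotted line.

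Reads in testis were spread over many loci. Summed over the 19 libraries they ran from 15 (7-qD2-40) to 2118 (2-qE1-35981), with a median of 344. In halved reads the least read were 8-qA2-343 and 13-qA3.1-213, with 13 each, below 7-qD2-40, whose counts include odd ones. These are reads per locus and not levels per length, because lengths of the loci were not used here. The 10 most read were 2-qE1-35981, 9-qC-31469 (1798), 7-qD2-24830 (1776), 17-qA3.3-26735 (1744), 12-qE-23911 (1668), 13-qA5-464 (1580), 18-qE1-36451 (1562), 9-qA5.3-24188 (1554), 14-qA3-19970 (1498) and 3-qA2-617 (1468). Together they held 31.2% of the members' testis reads as deposited (30.5% when halved), 19 loci held 50%, and the 20 least read held 2.04%. By chromosome, the 10 loci of chromosome 7 held 11.3% and the 10 of chromosome 10 held 9.66%, while the 1 locus of chromosome 19 held 0.164%.

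Several loci often share a band. There were 26 bands with 1 locus and 26 with more, which together held 71 loci. The band with most reads was qA3.3 of chromosome 17 (3228 reads, 6.00% of the total), where 17-qA3.3-26735 had 1744 reads, 17-qA3.3-27363 had 1272 and 17-qA3.3-352 had 212. It was followed by qD1 of chromosome 7, with 3106 reads over 4 loci, and qA3 of chromosome 14, with 2968 over 4. Neighbours in a band could differ widely. The ratio of the most to the least read locus was 1.07 in qC5 of chromosome 8 (8-qC5-8200 with 238 reads and 8-qC5-2209 with 222) and 118 in qD2 of chromosome 7 (7-qD2-24830 with 1776 and 7-qD2-40 with 15). Its median over the 26 bands was 3.66, and it exceeded 10 in 6 of them. In halved reads the highest ratio, in the same band, was 59.2, the median 3.24, and 5 bands exceeded 10.

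The number that ends each name moved with the testis reads. Over the 97 loci Spearman's rho was 0.74, given as a description, since all loci were counted in the same libraries. The 21 loci with a number above 10000 had a median of 1352 testis reads, none below 704, and made up 8 of the 10 most read. The 33 loci with a number below 1000 had a median of 84, and the highest of them were 13-qA5-464 with 1580 and 3-qA2-617 with 1468. The sources at hand do not say what the number counts. The 3 lowest numbers, 1-qE2.3-2, 2-qE5-4 and 7-qD2-40, were all among the 7 loci with odd counts.

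**Figure D2:**
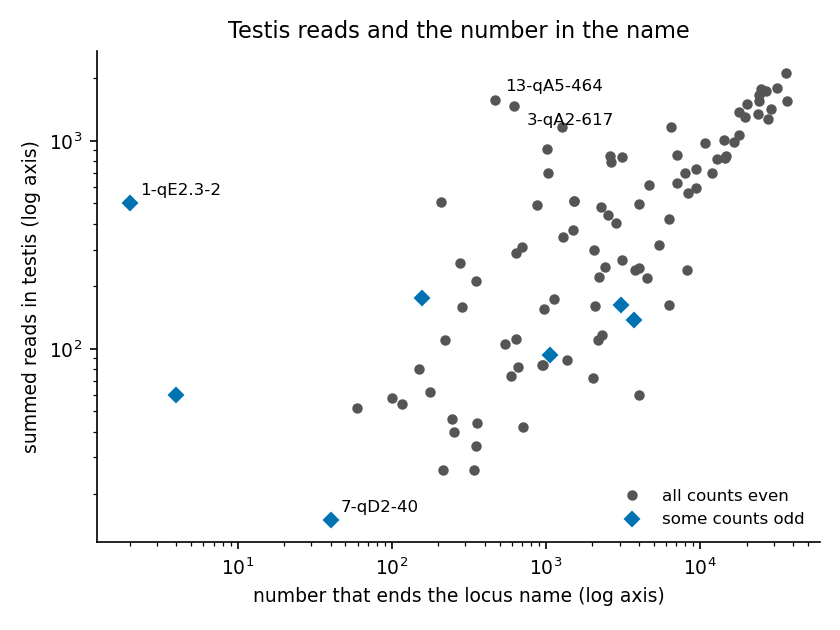
Number that ends the name of a locus (horizontal axis, log) against its summed reads in the 19 testis libraries (vertical axis, log). Each point is 1 of the 97 loci, diamonds mark the 7 with odd counts, and 13-qA5-464 and 3-qA2-617 stand above the other loci with low numbers.

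Whether the precursors were higher in testis was tested with edgeR's quasi-likelihood F test over all 111 libraries, with terms for tissue and diet. A feature was called at a Benjamini-Hochberg adjusted p under 0.05 over all features and a log2 fold change of at least 1 in size. Without a filter on low counts, 96 of the 97 loci were higher in testis than in the mean of the other 5 tissues, where 49.7% of all 907 features were, and none was lower (6.84% of all features). The exception was 7-qD2-40, at 0.48 ± 0.18 (log2, SE). The filter left 34 loci, many of which passed it only because of testis, so their count of 33 called higher (against 37.3% of the 295 features) adds nothing about the loci. Among the named loci 7-qD2-24830 was higher by 8.11 ± 0.35 and 9-qC-31469 by 7.71 ± 0.29. The mean of the other tissues includes some with few or no reads, so these sizes rest in part on how the fit treats zeros. The locus 7-qD2-24830 had no read in caput, liver or heart. Few libraries of other tissues held 9-qC-31469. It ranged from 58.1 to 3551 reads per 1000000 reads of the library (RPM) with a median of 857 in testis, and had reads in 3 of 19 sperm, 2 of 18 cauda, 1 of 17 liver and 1 of 19 heart libraries and in none of caput. In bulk tissue, fewer cells of a type and less RNA per cell cannot be told apart.

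The locus 1-qE2.3-2 did not follow the others. It had 503 reads in testis, 134 in sperm, 139 in cauda, 30 in caput, 43 in liver and 134 in heart, so that 48.8% of its reads lay outside testis. Its level was 198 RPM ± 146 in testis, 153 ± 99.0 in sperm, 103 ± 126 in cauda, 64.4 ± 99.5 in caput, 21.7 ± 20.6 in heart and 11.9 ± 16.7 in liver. Neighbours in that order differed by less than the larger of their SDs. In heart it was present in all 19 libraries and accounted for 134 of the members' 139 reads. Its log2 fold change in testis over the other tissues was 0.49 ± 0.27 and was not called (adjusted p = 0.0893, edgeR), although it was called with RLE factors, with total counts and without the filter. It was the most read of the 97 loci in sperm, where it made up 26.9% of their halved reads (exact 95% interval 23.1% to 31%), and in cauda with 36.5% (31.6% to 41.5%). In testis its share was 1.83% (1.68% to 2.0%). These intervals cover counting error only.

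Sperm form in the testis, and the next comparison asks how much of each precursor was found in them. Without the filter, 93 of the 97 loci were lower in sperm than in testis, compared with 43.3% of all features, and 1 was higher (23.3% of all features). With the filter, 32 of 34 loci were lower and none higher (45.8% and 29.8% of the 295 features), a count that the same filter partly sets. In halved reads pooled over libraries, 2-qE1-35981 stood at 342 RPM in testis and 10.2 in sperm, a 33.5-fold difference (exact 95% interval 16.9 to 77.7). For 9-qC-31469 the values were 290.0 and 3.83 RPM, 75.8-fold (25.8 to 368), from 3 halved reads in sperm. The exact intervals of pooled reads, here and below, cover counting error only and not the spread among libraries. Pooling also gives the deepest libraries the most weight. The 14-qC1-1010 precursor had 458 halved reads in testis and none in sperm, so it was at least 38.6-fold lower there, taking 3 reads over all sperm libraries as the limit of detection. Among the named loci the smallest called differences were of 13-qA5-464 at -3.41 ± 0.49, 3-qA2-617 at -3.49 ± 0.52 and 5-qF-4633 at -3.52 ± 0.52. The 2 loci not called with the filter were 10-qC1-875 and 1-qE2.3-2, the latter at 0.61 ± 0.36 (adjusted p = 0.113, edgeR), which turned to -0.32 with total counts and to -0.29 without the filter.

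The precursor 10-qC1-875 differed little between sperm and testis beside most other loci. It was read in 16 of 19 sperm libraries, with a median of 106 RPM and a highest value of 304 RPM, and in all 19 of testis, with 41.7 to 587 RPM and a median of 235. The sperm and testis libraries overlapped for most of their range. Its log2 fold change in sperm against testis was -0.12 ± 0.37 (adjusted p = 0.83, edgeR), and its sign turned with RLE factors (0.12), DESeq2 (0.12) and the control diets alone (0.24). Without the filter it was -0.91 ± 0.38 (adjusted p = 0.0296, edgeR), short of the 1 in size required for a call. The ratio of pooled halved reads was 0.71 (exact 95% interval 0.50 to 0.98). It was nearly absent from cauda, with 8 reads in 4 of 18 libraries, and had no read in caput, liver and heart. Against cauda it was higher in sperm by 4.61 ± 0.52 (adjusted p = 1.12e-11, edgeR), the largest such difference among the 34 tested loci. It made up 8.84% of the members' halved reads in sperm (6.49% to 11.7%) and 0.892% in testis (0.784% to 1.01%). Relative to the other band-named precursors, with libraries scaled to the members' own reads, it was higher in sperm by 3.55 ± 0.38 (adjusted p = 1.48e-13, edgeR), and 1-qE2.3-2 by 4.13 ± 0.35 (adjusted p = 9.61e-21). On that scale 18 of the other 32 loci were lower in sperm and the rest were not called. The share of all features called on it is not given. The loci 10-qC1-875 and 1-qE2.3-2 were those not called lower with the filter, while the members' sum fell in sperm. Their rise on this scale was thus largely set in advance, and its p-values add no separate support. The scale rests on 11 to 165 member reads per sperm library.

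The isoforms of 10-qC1-875 differed between the 2 tissues. In testis isoform 1 had 208 reads, isoform 2 had 344 and isoform 3 had 490. In sperm isoform 1 had 4 reads, isoform 2 had 26 and isoform 3 had 88. Isoform 3 thus held most of what was listed in sperm, whereas in testis the 3 isoforms lay closer together. How far their reads overlap is not known, and no test was made of isoforms. Of the 97 loci, 66 had several entries and 36 kept several after collapsing. For 13-qA5-464 the order was the same in both tissues, with 1580, 692, 476 and 296 testis reads for isoforms 2, 4, 3 and 5, and 34, 22, 12 and 6 in sperm.

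**Figure D3:**
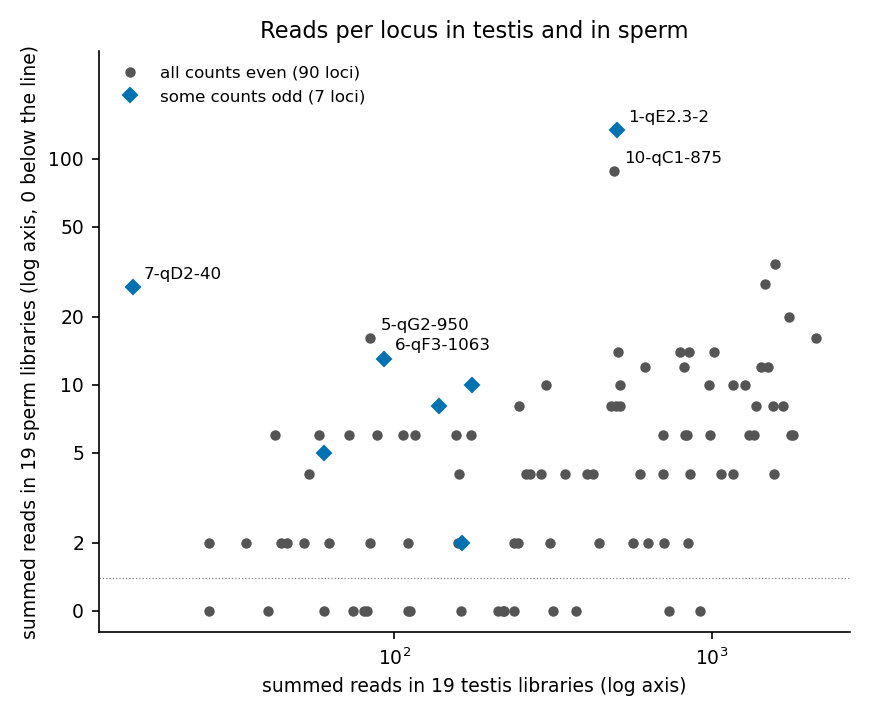
Summed reads of each of the 97 loci in 19 testis libraries (horizontal axis, log) and 19 sperm libraries (vertical axis, log, with 0 drawn below the dotted line). Sperm reads went with testis reads at Spearman's rho of 0.46 over the 97 loci, a description, while 1-qE2.3-2 (134 sperm reads), 10-qC1-875 (88) and 7-qD2-40 (27) stand above the others with like testis reads.

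A few more loci had much of their signal outside testis. The share of a locus's reads found there had a median of 1.54% over the 90 loci with even counts and 16.7% over the 7 with odd counts, and it exceeded 10% for 10 loci in all. The highest was 83.3%, of 7-qD2-40, which had 15 reads in 9 testis libraries, 27 in 12 sperm libraries and 47 in 14 cauda libraries. In pooled reads it was 7.12-fold higher in sperm than in testis (exact 95% interval 3.65 to 14.4), and without the filter its log2 fold change there was 2.04 ± 0.49, the 1 locus called higher. It had no read in caput, which puts cauda at least 5.22-fold above it, taking 3 reads over all caput libraries as the limit. After 1-qE2.3-2 came 5-qG2-950 (27.6% outside testis) and 6-qF3-1063 (27.3%), with 10.2 and 16.6 RPM (pooled, halved where even) in sperm against 13.6 and 30.0 in testis.

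Sperm and the cauda that stores them were compared in the same fit. The mean summed share was 3.22-fold that of cauda in sperm, 2.68-fold with halved counts and 1.90-fold with the reads of all entries as denominator. Of 34 loci, 16 were called higher in sperm and none lower (22.4% and 22% of the 295 features), while without the filter 23 of 97 were higher and 1 lower (14.2% and 18.9% of 907 features). That 1 was 17-qA3.3-352, whose 8 cauda reads, 4 when halved, put cauda below the limit of detection in sperm, so no fold is given. After 10-qC1-875, the loci with reads in both tissues that differed most were 17-qA3.3-26735 (3.43 ± 0.73) and 10-qC1-2617 (3.29 ± 0.68). They rest on few reads. The locus 17-qA3.3-26735 had 20 reads in 9 sperm libraries and 4 in cauda, a 13.2-fold ratio of pooled levels (exact 95% interval 2.82 to 124). For 9-qC-10667, with 10 sperm reads and none in cauda, sperm was at least 4.40-fold higher, and for 9-qA5.3-24188, with 8 and none, at least 3.52-fold. DESeq2 called 7 of the 34 loci, and the control diets alone gave 6. The shares of all features called under these settings are not given, so the counts only show how far the number of calls moved.

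Few band-named reads lay in either end of the epididymis. In cauda against caput 6 loci were called higher and none lower with edgeR (35.9% and 27.1% of the 295 features). At an unadjusted p under 0.05 there were 7, a level for which the share of all features is not given. Without the filter 12 of 97 were higher and none lower, where 46.2% of the 907 features were higher and 9.59% lower. DESeq2 called none, with none at an unadjusted p under 0.05, and gave 5 of the 34 log2 fold changes above 0, where edgeR gave 32. The 6 loci called with the filter had no read in caput, where 3 reads over all libraries amount to 4.34 RPM. Of the 6, 3-qA2-617 exceeded that limit in cauda, with 6.28 RPM (pooled, halved), at least 1.45-fold above caput. The other 5 (2-qE1-35981, 12-qE-23911, 14-qA3-3095, 14-qA3-19970 and 4-qC5-17839) were at the limit or below it, so no fold change is given.

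Set beside the host-named precursors, the band-named ones were the larger class in testis and the smaller one in sperm and cauda. The ratio of band-named to host-named reads, both halved where even, was 6.40 ± 1.58 in testis (n = 19, 3.23 to 9.75), 0.271 ± 0.117 in sperm (n = 19, 0.0857 to 0.533) and 0.131 ± 0.124 in cauda (n = 18, 0.0407 to 0.55). The testis libraries did not overlap with those of sperm or cauda. In caput both classes were rare, and the ratio ran from 0 to 1 in the 15 libraries with a host-named read. The host-named share of a library was 0.317% ± 0.267 in testis, 0.291% ± 0.146 in sperm and 0.254% ± 0.123 in cauda. These 3 means differed by less than the SD, while the mean band-named share was 27.3-fold higher in testis than in sperm and 87.7-fold higher than in cauda. With halved counts these ratios were 23.8 and 63.9, and with the reads of all entries as denominator 70.7 and 134.

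Within testis the amount of the precursors varied far more than the part of it held by the 10 most read loci. The summed share differed 41.7-fold between the lowest library (control replicate 2, 0.272%) and the highest (high-fat control replicate 3, 11.3%). The 10 most read loci, however, made up between 26.5% and 34.4% of the members' reads in each of the 19 libraries. They were picked from these same libraries, and single loci among them moved more than their sum. The share of 3-qA2-617 ran from 1.02% in high-fat replicate 2, which had 196 member reads, to 5.16% in control replicate 5. Spearman's rho between a library's reads per locus and the sum of the other 18 was 0.95 at the median and 0.67 at the lowest, over 97 loci. The host-named share varied 19.2-fold over the same libraries, and the ratio of band-named to host-named reads 3.02-fold.

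By diet, the summed testis share was 0.756%, 0.272%, 2.92%, 1.80% and 0.445% in control replicates 1 to 5. It was 2.67%, 1.81%, 3.69%, 0.930% and 2.29% on the low-protein diet, and 4.78%, 5.01%, 11.3%, 5.73% and 4.05% on the high-fat control diet. The 4 high-fat libraries had 1.75%, 1.94%, 2.22% and 7.75%. All high-fat control libraries lay above all control libraries, while the low-protein libraries overlapped with control, and the high-fat libraries with the high-fat control through replicate 4 alone. Depth differed in the same way: control libraries had 117918 to 671169 reads, low-protein 80908 to 279680, high-fat control 19533 to 43322 and high-fat 10122 to 119071. Over the 19 testis libraries Spearman's rho between the summed share and depth was -0.59, given as a description. Depth thus separated the high-fat control from the control libraries as well, and its part in the result was not tested.

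**Figure D4:**
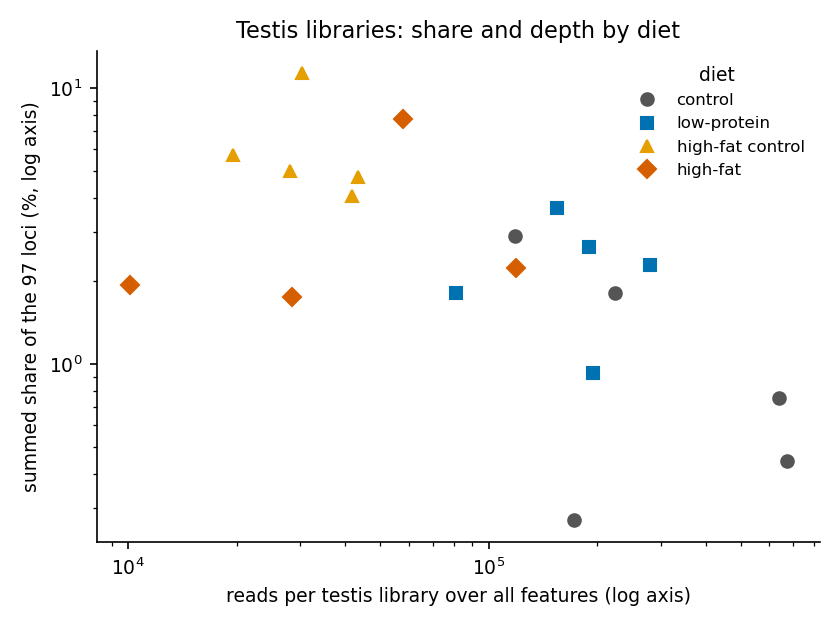
Reads per testis library over all features (horizontal axis, log) and summed share of the 97 loci (vertical axis, percent, log), with 1 symbol per library by diet. The 5 high-fat control libraries lie at the upper left, at 19533 to 43322 reads and 4.05% to 11.3%, apart from the 5 control libraries at 117918 reads or more and 2.92% or less.

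The question of the low-protein diet is whether protein shortage alters small RNAs of the testis. No feature at all was called between low-protein and control testis with edgeR (0.0% of 448 in either direction) or DESeq2. Among the 81 loci that passed the filter, none had an unadjusted p under 0.05 with either tool, and 41 of the 448 features had one with edgeR. The log2 fold changes of the loci ran from -0.37 to 1.32, with a median of 0.38 (0.05 over all features) and 74 of 81 above 0. The smallest p was of 19-qC2-1361 at 1.32 ± 0.69 (adjusted p = 0.52, edgeR), followed by 9-qF4-150 at 1.27 ± 0.78 and 15-qE1-3710 at 0.97 ± 0.66. For 19-qC2-1361 the 5 control libraries had 4, 0, 4, 8 and 4 reads and the 5 low-protein ones 6, 6, 20, 6 and 8. For the most read locus, 2-qE1-35981, control stood at 339, 105, 950, 688 and 134 RPM, and low-protein at 1052, 865, 1357, 390 and 951. The groups overlapped, at 0.55 ± 0.44. In no locus were all low-protein libraries above or below all control libraries (0.48% of 1042 features above, 0.0% below). In simulated data for this comparison, 38% of 187 features changed by 2 on the log2 scale were recovered. The simulation set the same spread for every feature and changed features drawn at random, some up and some down. It therefore does not measure the power for these loci.

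High-fat against high-fat control testis asks the same of dietary fat. With edgeR no feature was called (0.0% of 448 in either direction), with 5 of 81 loci and 19 of 448 features at an unadjusted p under 0.05. DESeq2 called 2 features, neither of them band-named, with 15 loci at an unadjusted p under 0.05. How many of all features reached that level with DESeq2 is not given, so nothing about the loci is read from it. The loci's log2 fold changes ran from -1.47 to 0.34, with a median of -0.69 (0.03 over all features) and 5 of 81 above 0. The smallest p were of 3-qA2-617 (-1.40 ± 0.53, adjusted p = 0.72, edgeR), 18-qE1-36451 (-1.26 ± 0.53) and 14-qA3-2286 (-1.31 ± 0.60). The RPM of 3-qA2-617 were 1708, 997, 3025, 1741 and 1006 on the high-fat control diet and 281, 198, 437 and 1451 on the high-fat diet, where replicate 4 alone overlapped with the high-fat control. No locus had groups that did not overlap (0.48% of 1042 features above, 0.576% below).

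The 2 control diets differed. In high-fat control against control testis, 49 of the 81 tested loci rose and none fell with edgeR, where 17% of the 448 features rose and 29.7% fell. Loci can pass the filter through the libraries of 1 diet alone, so this count and the values of the 81 loci are partly set by it. The count without the filter is given below. All 81 log2 fold changes were above 0, with a median of 1.34 against 0.11 over all features. Over all 97 loci without any filter, every mean RPM was higher on the high-fat control diet, and for 40 of them all 5 libraries lay above all 5 control libraries (77 of 1042 features, 7.39%, did so, and 1.92% lay wholly below). RPM rest on total counts, and with total counts the median of all features rose as well, as the section on processing gives. RPM differences between the control diets, here and below, thus include a shift shared with other features. Of the 28 host-named features tested, 2 rose, with a median of 1.07. Scaled to the reads of all piRNA precursors instead, no locus was called, the loci's median was 0.09 and that of all features -1.19. That scale removes by construction a shift common to the precursors. The control libraries enter both this comparison and the low-protein one, and the high-fat control libraries both this one and the high-fat one.

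The locus with the smallest p was 8-qC5-8200, at 2.16 ± 0.56 (adjusted p = 0.00425, edgeR). It stood at 28.3, 0, 50.9, 98.2 and 23.8 RPM in control and at 369, 142, 592, 614 and 288 RPM in high-fat control testis, with no overlap. The locus 18-qE1-36451 rose by 1.85 ± 0.49, from 189, 58.1, 797, 536 and 98.3 RPM to 1754, 2137, 3879, 2560 and 1054 RPM. For 9-qA5.3-24188 the control libraries had 207, 92.9, 848, 393 and 104 RPM and the high-fat control libraries 1477, 1211, 4603, 1843 and 1438 RPM (1.73 ± 0.47). In these 3 loci each high-fat control library lay above each control library, and control replicate 3 or 4 was the highest of its group. The other loci with the smallest p values were 10-qC1-12816 (1.74 ± 0.47), 6-qD1-2831 (1.98 ± 0.55), 9-qF4-150 (2.91 ± 0.81), 5-qF-14224 (1.49 ± 0.44), 9-qA5.3-1495 (1.75 ± 0.52), 8-qE1-3748 (2.0 ± 0.60) and 9-qC-31469 (1.52 ± 0.46). The change of 9-qF4-150 rests on 12 reads in control and 24 in high-fat control.

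The 2 loci that passed the tissue filter and were not called lower in sperm had the smallest log2 fold changes of the 81 loci here. For 10-qC1-875 the log2 fold change between the control diets was 0.48 ± 0.47 and for 1-qE2.3-2 it was 0.07 ± 0.55, and neither was called. The high-fat control libraries had 369, 285, 263, 307 and 335 RPM of 10-qC1-875 and the control libraries 78.6, 69.7, 136, 196 and 41.7, which did not overlap. For 1-qE2.3-2 they had 415, 392, 65.8, 154 and 95.9 RPM against 58.2, 40.7, 178, 205 and 52.1, which did. Over 49 called of 81 loci, calls within a band were mixed. Of 22 bands with at least 2 tested loci, 9 had every tested locus called, 10 had some and 3 had none. All 4 loci of qA3 on chromosome 14 lay between 1.30 and 1.59, and 3 of them were called, while none of the 5 loci of qA5 on chromosome 13 was, at 0.75 to 1.23.

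**Figure D5:**
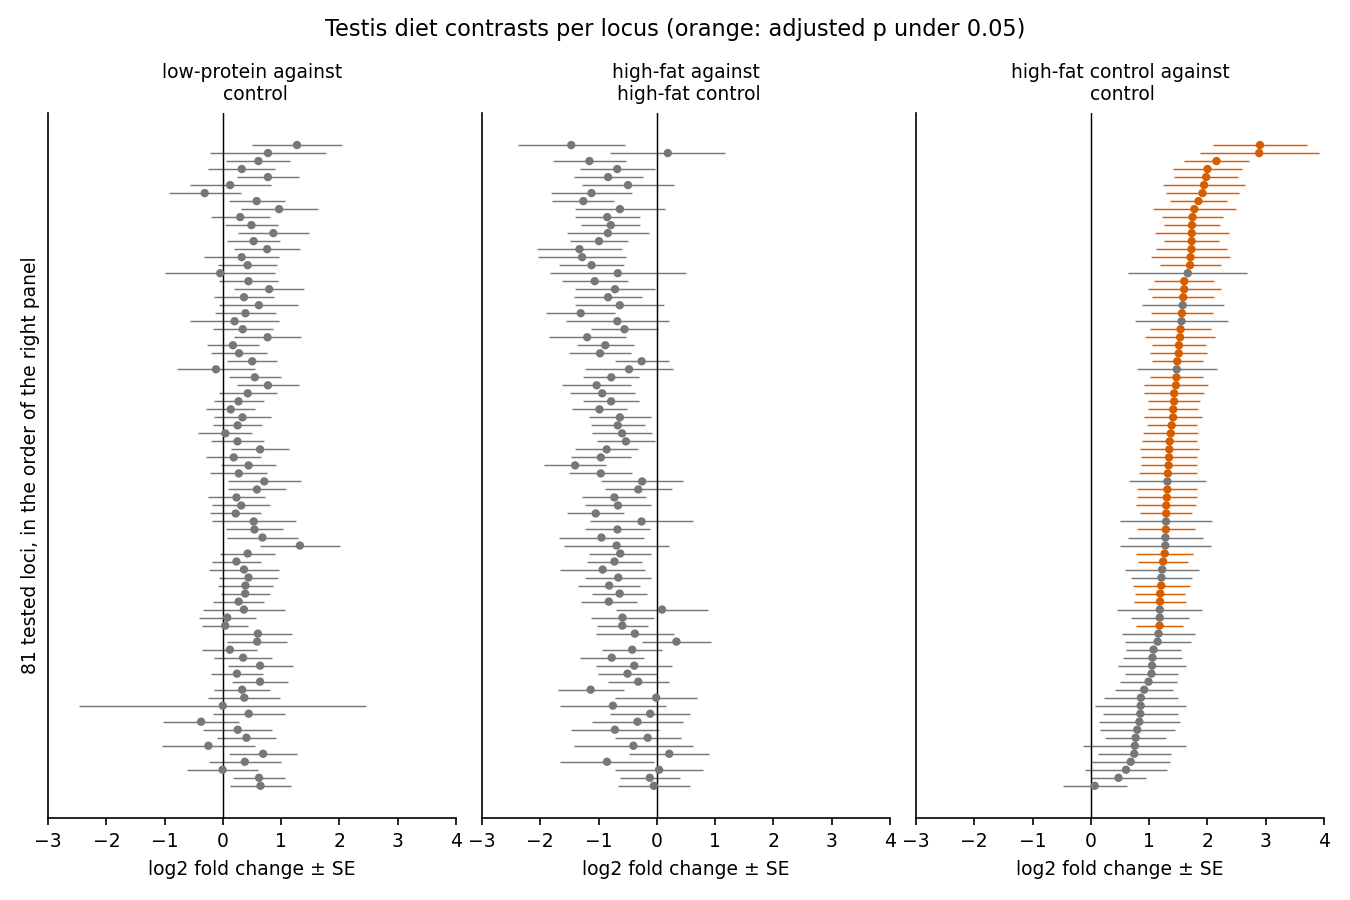
Log2 fold change ± SE of the 81 tested loci (1 per line, in the order of the right panel) in the 3 testis diet comparisons, with called loci in orange. No locus is called in the left and middle panels, and 49 are called in the right panel, where all 81 lie above 0.

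How many of these calls were made depended on the filter and on single libraries. Leaving out each library of the 2 groups in turn gave between 20 and 60 called loci. The count was 20 without high-fat control replicate 3, 21 without control replicate 2, 22 without control replicate 5 and 29 without control replicate 1. With all libraries but no filter on low counts, it was 13 of 97 (2.71% of 886 features rose and 17.5% fell). No library left out made a locus fall. The shares of all features called with a library left out are not given, so these counts only show how far the number of calls moved.

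Outside testis the loci were too rare for most diet comparisons. None passed the filter in sperm, cauda, caput or liver, and 1 did in heart. No feature was called in sperm or cauda (0.0%), while in caput 14.5% rose and 26.9% fell on the low-protein diet and 0.69% rose on the high-fat diet. In liver 9.76% rose and 25.9% fell on the low-protein diet, and 2.44% rose and 0.488% fell on the high-fat diet. Without the filter, edgeR called none of 80 loci in sperm and none of 64 in cauda in either diet comparison. At an unadjusted p under 0.05 there were 9 in sperm in each comparison, 6 in cauda for low-protein and 8 for high-fat. The share of all features at that level is not given, so nothing about the loci is read from these counts. None of 6 loci in caput and none of 10 in liver was called, with at most 1 at an unadjusted p under 0.05 in each. The shares of all features called without the filter are not given for these tissues, so nothing about the loci is read from those counts either. In sperm, the summed share was 0.0528%, 0.0486%, 0.137%, 0.0392% and 0.122% on the control diet and 0.175%, 0.0696%, 0.130%, 0.140% and 0.142% on the low-protein diet. It was 0.492%, 0.106%, 0.122%, 0.0768% and 0.102% on the high-fat control diet and 0.0781%, 0.107%, 0.0979% and 0.0439% on the high-fat diet. The groups overlapped in both comparisons.

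The locus tested in heart was 1-qE2.3-2. It was higher on the low-protein than on the control diet by 1.86 ± 0.63 (adjusted p = 0.0047, edgeR), in a comparison where 33.7% of the 243 features rose and 41.6% fell. The control libraries had 5.29, 9.50, 5.45, 1.36 and 3.41 RPM, from 4, 12, 6, 1 and 5 reads, and the low-protein libraries 50.9, 10.7, 34.2, 18.6 and 8.51 RPM, from 9, 2, 1, 2 and 4 reads. The lowest low-protein library fell within the control range. The members' summed level, which in heart is almost all this locus, was 24.2, 23.5, 22.8, 88.3 and 28.4 RPM on the high-fat control diet. On the high-fat diet it was 30.4, 36.6, 12.2 and 7.97 RPM. Levels above most control libraries were thus not limited to the low-protein diet. Without low-protein replicate 1 it was no longer called, at 1.56. Control heart libraries had 735212 to 1467885 reads and low-protein ones 29212 to 470065, and the part of depth in this result was not tested. High-fat against high-fat control heart gave -0.50 ± 0.56 (adjusted p = 0.87, edgeR), where 0.823% of the features rose and 0.412% fell.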

How the data were processed

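OTTR-seq, in which a reverse transcriptase adds both adapters while copying an RNA, was run on total RNA of 111 libraries. The authors deposited a single table of raw read counts (whole numbers), 1 line per small RNA. The build mm10 and the tools cutadapt and DESeq2 appear in the submitters' processing notes, without role or version. The sources used here name neither aligner nor counting rule nor use of strand. Coordinates and sequences of the loci were not used here. Overlapping or repeated loci could share reads.

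An entry was collapsed into a more read one when their counts, over all libraries, differed by under 5% in sum. Outside the band-named loci, entries under 50 reads were not compared, 5S ribosomal RNA genes were taken as 1 feature (found by their GENCODE M21 class) and second names of mitochondrial tRNAs were dropped. The 1042 features hold 51.1% of the summed counts. RPM are reads per 1000000 reads of these features. The tests used edgeR 4.0.16 (R 4.3.3) with TMM factors, the filterByExpr filter and a robust quasi-likelihood F test. Tissue contrasts came from 1 fit over all libraries with tissue and diet terms, diet contrasts from 1 fit per tissue over all 4 diets, with Benjamini-Hochberg adjustment over all features of a contrast. Standard errors were derived from the F statistic. DESeq2 1.42.0, other scalings, no filter, all entries kept, libraries under 5000 reads left out, halved counts, single replicates left out and a replicate block were alternatives. Halved counts, scaling to the members' reads and the heart alternatives were added after seeing the data. The procedure was tested on simulated data. No 2 replicates agreed within sampling noise (204 pairs, smallest chi-square per degree of freedom 1.54). Replicate numbers come from the sample titles, and in some liver and cauda groups they differ from the numbers in the library names. Fits over all tissues that use replicate numbers follow the titles.

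Loci named are the 10 with most testis reads, the called loci of testis diet contrasts (at most 10 by p, or the 3 with the smallest p), the 5 largest and 5 smallest called log2 fold changes of each tissue contrast, and the 5 with most reads outside testis. Loci of shared bands are given as groups. Other loci named were chosen after their values were seen. The members, lists and tests were chosen with earlier results of these data known.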

Additional observations from a re-analysis of the deposited data

Results flagged for a closer look

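A sample was picked out where the gap between it and the nearest other library of its group took up more of the group's range than Dixon's 95% critical value allows. This was applied to 64 groups of values, the summed share in 24 groups of tissue and diet and the RPM of the 10 most read loci in 4 testis diets. Chance picks out about 1 in 20 such groups, and the 10 loci are not independent of one another, since they share libraries. In all, 14 groups had such a library.

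In high-fat control testis, replicate 3 stood above the rest in the summed share (11.35%, next 5.73%). It also did so for 2-qE1-35981 (5589 RPM), 7-qD2-24830 (4471 RPM), 17-qA3.3-26735 (4208 RPM), 12-qE-23911 (3682 RPM), 9-qA5.3-24188 (4603 RPM) and 14-qA3-19970 (3485 RPM). In high-fat testis, replicate 4 stood above the rest in the summed share (7.746%, next 2.22%) and for 7-qD2-24830 (3110 RPM), 12-qE-23911 (2488 RPM) and 13-qA5-464 (2660 RPM). It held 57.3% of that group's band-named reads. In low-protein testis, replicate 4 stood below the rest for 18-qE1-36451 (266.9 RPM, next 694).

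Outside testis, sperm high-fat control replicate 1 had a summed share of 0.4916% (next 0.122%), from 42 reads in a library of 8544. Heart high-fat control replicate 4 had 0.008833%, from 1 read in a library of 11321.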

How the results depend on the processing

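Of 781 values of 56 results for named loci under the alternatives, 691 kept their direction and their side of the threshold, 67 lost a call, 7 gained one and 16 changed sign. Without the filter, the loci called were 96 in testis over other tissues, 1 higher and 93 lower in sperm against testis, 23 higher and 1 lower in sperm against cauda, 12 in cauda against caput and 13 in high-fat control against control testis. Halving the even counts left 11 loci higher in testis, 11 lower in sperm than in testis, 6 higher in sperm than in cauda and 1 in cauda over caput, with fewer loci passing the filter. How many passed it and the shares of all features called are not given, nor is the halved count for high-fat control against control testis. The counts under this and the following settings only show how far the number of calls moved. DESeq2 gave 7 for sperm over cauda and 0 for cauda over caput, and the control diets alone gave 6 for sperm over cauda. Scaled to the members' reads, 2 loci were higher and 18 lower in sperm against testis. In high-fat control against control testis, total counts gave 74, and scaling to piRNA precursor reads 0. With total counts the median of all features there was 1.11, against 0.11 with TMM.

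Leaving out 1 replicate number in all tissues gave 16 to 28 loci higher in testis, 0 to 1 higher and 15 to 27 lower in sperm against testis, 8 to 18 higher in sperm over cauda, and 1 to 7 higher and 0 to 1 lower in cauda against caput. Leaving out single libraries gave 20 to 60 loci in high-fat control against control testis and 0 to 1 in heart. Fits with and without a library differ in how many loci pass the filter, and the shares of all features called in them are not given. In the low-protein and high-fat testis comparisons no locus was called under any alternative run.

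For 10-qC1-875 in sperm against testis, the sign turned with RLE factors (0.12), DESeq2 (0.12), libraries under 5000 reads left out (0.070), the control diets alone (0.24) and scaling to the members' reads (3.55), and it ran from -0.27 to 0.47 with a replicate number left out. Without the filter it was -0.91. For 1-qE2.3-2 it turned with total counts (-0.32), no filter (-0.29) and all entries kept (-0.064). On the members' scale 5-qF-4633 (0.35), 3-qA2-617 (0.30) and 13-qA5-464 (0.63) turned, and with DESeq2 in cauda against caput 2-qE1-35981 (-0.27) and 4-qC5-17839 (-0.41). The cause was not tested. Summing all entries gave a share of 6.13% in testis and 0.0619% in cauda, and the reads of all entries as denominator gave 1.88% in testis, 0.0266% in sperm and 0.0140% in cauda.

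Same-numbered testis libraries on different diets had a median correlation of 0.04, from -0.73, and 9 of 27 pairs were over 0.1. Different diets mean different mice, so that check cannot show pairing by animal. Testis and sperm libraries with the same number and diet had a median of -0.093, with 8 of 19 pairs over 0.1. Over all tissues the median was -0.0016, with 72 of 270 pairs over 0.1. That check includes liver and cauda groups whose replicate numbers differ from those in the library names. A replicate block gave 44 called loci in high-fat control against control testis, against 49 without it.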
